A study of Mus musculus with 5 samples.

Results

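The cells described here are CD8 T cells of pancreatic tumours from KPPCN mice, 335 cells that all came from the library KPPCN 1. They were chosen by rule from single-cell RNA values: at least 500 genes detected, at least 1 UMI (unique molecular identifier, 1 counted transcript) of Cd3d, Cd3e or Cd3g, at least 1 UMI of Cd8a or Cd8b1, no UMI of Cd79a or Cd79b, and Dcn under 5 UMIs per 10000. They were 335 of 5378 KPPCN 1 cells with at least 500 genes (6.23%, 95% exact binomial interval 5.60 to 6.91%). All libraries together held 17771 cells. Library KPPCN 2 held no such cell, and 0 of its 2018 cells allows a share of up to 0.149%. Intervals and limits of this kind cover counting error only, not the spread between tumours.

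CD8 T cells recognise peptides on MHC class I molecules through a T cell receptor that signals through the CD3 chains, with CD8 as coreceptor. Naive CD8 T cells circulate through lymphoid organs with the help of Ccr7 and are kept quiescent by factors such as Lef1, Tcf7 and Klf2. After activation they can make cytotoxic proteins such as perforin and granzymes and chemokines such as Ccl5, and persistent antigen in tumours is known to drive inhibitory receptors such as Pdcd1 and Havcr2.

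KPPCN mice develop pancreatic carcinoma after Pdx1-Cre, which acts in the pancreatic lineage, has removed both Trp53 alleles together with Nsdhl, a sterol dehydrogenase of cholesterol synthesis. KPPC mice carry the same alleles with Nsdhl intact. T cells do not descend from the Pdx1-Cre lineage, so the deletions are not made in them. Mice of both genotypes were untreated as far as the labels say, were 7 to 8 weeks old and had advanced tumours. Beads removed dead cells and then cells with CD45, the common antigen of white blood cells, before about 6000 cells were loaded per droplet library, so the T cells in the library are those that remained after a step that removes T cells, and their share is not their share in the tumour. Each library was taken as 1 tumour. With all members in 1 library there was no replicate, so no test was possible and no p-value is given.

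Libraries differed in ways that bear on where T cells could be looked for. KPPCN 1 held 6111 barcodes with a median of 2006 UMIs, and KPPCN 2 held 2086 with a median of 20904. KPPCN 2 had no cell with a UMI of any Cd3 gene, 1 cell with Cd8a or Cd8b1 and 4 with Nkg7. Trbc2, a T cell receptor constant gene, was nevertheless detected in 1159 of its cells (57.4%), and Trac in 26. The KPPC table listed 12579 genes, against 31053 in the KPPCN table, and had a row for 1 of the 8 genes of the rule, Dcn, so CD8 T cells could not be sought in the KPPC libraries and no comparison of genotypes was made. Of the members, 1 barcode also occurred in another library.

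Before the limits on Cd79a, Cd79b and Dcn, 489 KPPCN 1 cells with at least 500 genes had both a Cd3 and a Cd8 UMI. Of these, 91 had a Cd79 UMI, 87 had Dcn at 5 or more per 10000, and 24 of them met both. The member nearest the gene limit had 508 genes and the nearest cell outside had 491. The highest Dcn value of a member was 4.98 UMIs per 10000, and the lowest of a cell left out for Dcn was 5.01. Most members rested on more than a single transcript: 85 had 1 UMI of Cd8a and Cd8b1 together, 75 had 2, and 175 had 3 or more.

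Members were compared within KPPCN 1 with 637 CD8-negative T cells (the same rule with no UMI of either CD8 gene), 1008 B cells (by Cd79a or Cd79b) and 1526 Dcn-high, fibroblast-like cells. Depth differed between these groups, with medians of 2487 UMIs in CD8 T cells, 1810 in CD8-negative T cells, 1254 in B cells and 3387 in Dcn-high cells. The lack of CD8 UMIs in a cell of 1810 UMIs does not show that it was not a CD8 T cell. CD8 T cells were 34.5% of the 972 T cells (95% exact binomial interval 31.5 to 37.5%), and with every cell thinned to 1000 UMIs this share was 25.3%. As a measure of background, a UMI of Cd8a or Cd8b1 was seen in 2.28% of B cells and 3.54% of Dcn-high cells, and 3 or more such UMIs in 2 cells of each.

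T cell genes that the rule had not used were widely detected in the members. Lck, the kinase that signals from the CD8 coreceptor, was detected in 70.1% of CD8 T cells, 55.3% of CD8-negative T cells, 5.75% of B cells and 5.83% of Dcn-high cells. Trac, the constant gene of the receptor α chain, was detected in 55.5% of CD8 T cells, 48.4% of CD8-negative T cells, 2.98% of B cells and 5.24% of Dcn-high cells. The adaptors Lat and Skap1 were detected in 51.0 and 52.2% of CD8 T cells, 46.6 and 40.2% of CD8-negative T cells, 4.27 and 2.48% of B cells, and 6.82 and 2.95% of Dcn-high cells. In all 4 genes both T cell groups thus lay above B cells, which were shallower, and above Dcn-high cells, which were deeper.

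Among the genes that chose the members, Cd8b1 was the more often detected coreceptor chain, in 272 cells, and Cd8a was detected in 245. Both chains were seen in 182 members, Cd8a alone in 63 (18.8%) and Cd8b1 alone in 90 (26.9%). Their summed levels were 437 CPM for Cd8a (CPM, UMIs per 1000000; 95% exact Poisson interval 398 to 479) and 555 CPM for Cd8b1 (511 to 602). The 2 genes lie side by side on chromosome 6 of mouse build GRCm38, Cd8a at chr6:71373427-71379173 and Cd8b1 at chr6:71322788-71337494. Cd3d, a signalling chain of the receptor complex, reached 806 CPM (752 to 862) and was detected in 85.7% of members. Of the 3 Cd3 genes, 116 members had all 3, 153 had 2 and 66 had 1.

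Markers of other white blood cells ranged from 0 to shares like those of the other groups. Cd4 was found in 3 CD8 T cells (0.896%), against 157 CD8-negative T cells (24.6%), 1.88% of B cells and 1.57% of Dcn-high cells. Of the 12 genes of the natural killer cell list, 3 (Ncr1, Klrb1c and Klrb1b) had no UMI in any member, which allows a share of up to 0.896% of cells with a UMI. Some of the list's genes, such as Eomes and Xcl1, are also used by CD8 T cells, and a UMI of any of the 12 was found in 18.5% of CD8 T cells, 17.4% of CD8-negative T cells, 14.9% of B cells and 12.9% of Dcn-high cells. Constant genes of the γδ receptor (Trdc, Tcrg-C1, Tcrg-C2, Tcrg-C4) were seen in 13 CD8 T cells (3.88%), against 42 CD8-negative T cells (6.59%). Of the 12 macrophage genes, 4 (C1qc, Adgre1, Mrc1 and Ms4a7) were at 0 UMIs in members, whereas Ctss was detected in 25.1% and Apoe in 18.2% of them. A UMI of any of the 12 was found in 42.4% of CD8 T cells, 35.3% of CD8-negative T cells, 60.2% of B cells and 69.1% of Dcn-high cells. The part of free RNA in these shares was not tested.

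Signs of other cells were nevertheless present in the library and touch the results that follow. Igkc, an antibody light chain gene of B lineage cells, was detected in 90.4% of CD8 T cells, 84.8% of CD8-negative T cells and 92.8% of Dcn-high cells. Hbb-bs, a globin gene of red blood cells, was detected in 87.8% of CD8 T cells and the collagen gene Col3a1 in 69.0%. These genes are not made by T cells, so a low detection share in this library is not evidence of expression. Separately, 13 CD8 T cells (3.88%) and 55 CD8-negative T cells (8.63%) carried at least 5 UMIs of one of 4 marker sets (neutrophil, epithelial, macrophage, MHC class II) and are called mixed cells here.

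**Figure D1:**
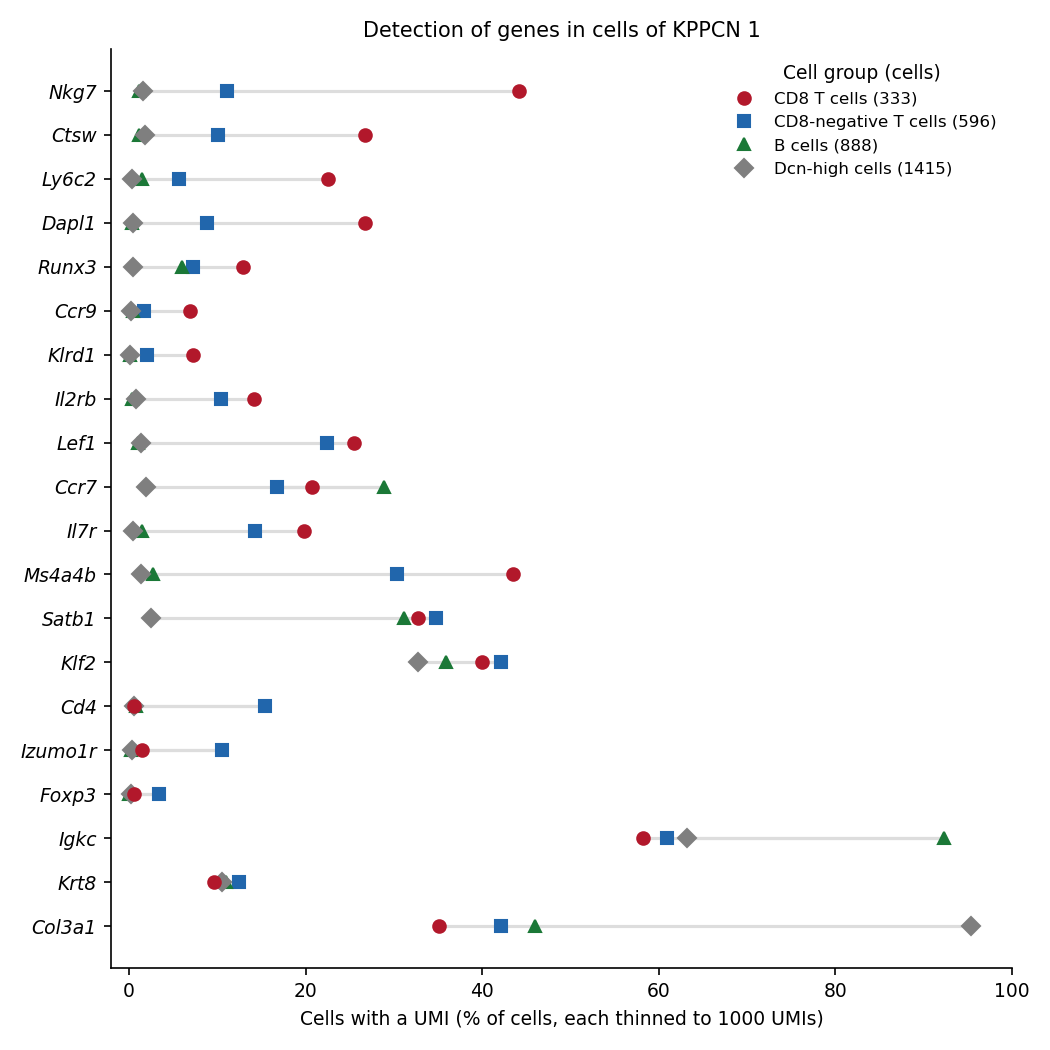
Percent of cells (x axis) with a UMI of each gene (rows) in CD8 T cells (333 cells), CD8-negative T cells (596), B cells (888) and Dcn-high cells (1415) of KPPCN 1, each cell thinned to 1000 UMIs; each point is 1 group. Nkg7, Ctsw, Ly6c2 and Dapl1 lie to the right in CD8 T cells, Cd4 lies to the right in CD8-negative T cells, and Igkc and Col3a1, genes of other cells, were found in every group.

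Genes of naive and central memory cells were widely detected in the CD8 T cells. Lef1, a transcription factor of naive T cells, was detected in 49.6% of CD8 T cells, 36.3% of CD8-negative T cells, 2.78% of B cells and 3.08% of Dcn-high cells. Ccr7, the chemokine receptor that guides cells into lymph nodes, was detected in 44.5% of CD8 T cells, 26.1% of CD8-negative T cells, 36.8% of B cells and 4.26% of Dcn-high cells. B cells use this homing gene themselves, so there it is no measure of background, and the Dcn-high cells, with the greatest depth, are the fitter comparison.

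The gap between the T cell groups in these genes was narrower at equal depth. After thinning each cell to 1000 UMIs (333 CD8 and 596 CD8-negative T cells; 2 and 41 shallower cells left out), Lef1 was detected in 25.5% of CD8 T cells and 22.5% of CD8-negative T cells. Ccr7 was detected in 20.7% of CD8 T cells and 16.8% of CD8-negative T cells at that depth. Dapl1, a gene known from naive and early memory CD8 T cells, behaved differently: it was detected in 46.3% of CD8 T cells and 13.3% of CD8-negative T cells, and after thinning in 26.7% of CD8 T cells and 8.89% of CD8-negative T cells. B cells had Dapl1 in 0.893% and Dcn-high cells in 1.70%.

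Among other genes of quiescent and long-lived T cells, those named in this paragraph were detected in 31.3 to 72.2% of CD8 T cells. The range does not hold for the whole gene list, of which Bach2 and Ly6c1 were detected in smaller shares. Ms4a4b, a membrane protein of T cells, was detected in 72.2% of CD8 T cells, 45.8% of CD8-negative T cells and 3.93% of Dcn-high cells. Il7r, the receptor for the survival cytokine IL-7, was detected in 34.9% of CD8 T cells and 21.98% of CD8-negative T cells, and Tcf7, a factor of naive and stem-like T cells, in 31.3 and 29.5%. Satb1, a chromatin organiser of T cells, was detected in 60.0% of CD8 T cells, 50.4% of CD8-negative T cells and 38.2% of B cells. Klf2 (68.4%) and Igfbp4 (66.0%) were detected in most CD8 T cells, but in 61.7 and 95.7% of Dcn-high cells as well, so their share in CD8 T cells cannot be told apart from free RNA.

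Cytotoxic genes were uneven. Nkg7, a protein of cytotoxic granules, was detected in 69.0% of CD8 T cells, 15.4% of CD8-negative T cells, 2.28% of B cells and 3.87% of Dcn-high cells, and its level was 622 CPM (575 to 672) in CD8 T cells and 134 CPM (119 to 151) in CD8-negative T cells. Ctsw, a protease of cytotoxic cells, was detected in 51.0% of CD8 T cells, 14.8% of CD8-negative T cells and 4.26% of Dcn-high cells. After thinning, Nkg7 was detected in 44.1% of CD8 T cells and 11.1% of CD8-negative T cells, and Ctsw in 26.7 and 10.1%. The gap in both genes was thus present at equal depth.

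Transcripts of the killing proteins themselves were rarely detected. Prf1, which encodes perforin, had UMIs in 26 CD8 T cells (7.76%), and the granzyme genes Gzmm, Gzma, Gzmb and Gzmk in 22, 6, 3 and 3 cells. Any of Gzma, Gzmb, Gzmk and Prf1 was found in 36 CD8 T cells (10.7%, 95% exact binomial interval 7.64 to 14.6%), against 6.44% of CD8-negative T cells, 2.68% of B cells and 2.03% of Dcn-high cells. Ifng, the gene of interferon γ, had UMIs in 4 CD8 T cells, and Cx3cr1, a receptor of terminal effector cells, in none.

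Genes of inhibitory receptors were at background. At least 1 UMI of Pdcd1, Lag3, Havcr2, Tigit or Ctla4 was found in 17 CD8 T cells (5.07%, 2.98 to 8.00%), against 96 CD8-negative T cells (15.1%), 4.27% of B cells and 5.44% of Dcn-high cells. UMIs of 2 or more of the 5 genes were found in 2 CD8 T cells, and Havcr2 (TIM-3) in none, which allows a share of up to 0.896%. Tox, a factor of exhausted T cells that is also used elsewhere in T cell development, was detected in 25 CD8 T cells (7.46%) and 8.95% of CD8-negative T cells, against 0.595% of B cells. These shares limit what could be detected at a median of 2487 UMIs per cell and not what the cells expressed.

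Naive-type and effector-type genes often occurred in the same cell. Counting a UMI of Ccr7 or Lef1 as naive-type and a UMI of Nkg7, Ccl5, Gzma, Gzmb, Gzmk or Prf1 as effector-type, 179 CD8 T cells (53.4%) had both, 58 (17.3%) had naive-type genes only, 69 (20.6%) had effector-type genes only and 29 (8.66%) had neither. Of CD8-negative T cells, 10.4% had both, 39.9% naive-type genes only, 15.4% effector-type genes only and 34.4% neither. The split rested on Nkg7: with Nkg7 left out, 76 CD8 T cells had both, 161 naive-type genes only, 33 effector-type genes only and 65 neither. After thinning, 20.7% of CD8 T cells had both, so the classes are ranges of detection and not cell types.

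Ccl5, the T cell chemokine also called RANTES, was concentrated in few CD8 T cells. It had no UMI in 241 of the 335 cells, 1 or 2 UMIs in 29, 3 to 9 in 26, 10 to 29 in 28, and 30 or more in 11 cells. Those 11 cells held 53.5% of the Ccl5 UMIs, and the highest cell had 184. Cells with 3 or more Ccl5 UMIs were 65 (19.4%) of CD8 T cells, 65 (10.2%) of CD8-negative T cells, 0.298% of B cells and 0.852% of Dcn-high cells, and among the 65 CD8 T cells the median was 12 UMIs. The summed level, 1274 CPM (1206 to 1344) in CD8 T cells and 657 CPM (623 to 694) in CD8-negative T cells, therefore describes a minority of cells. Its Poisson intervals leave out the spread between cells and are too narrow for a gene so concentrated.

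**Figure D2:**
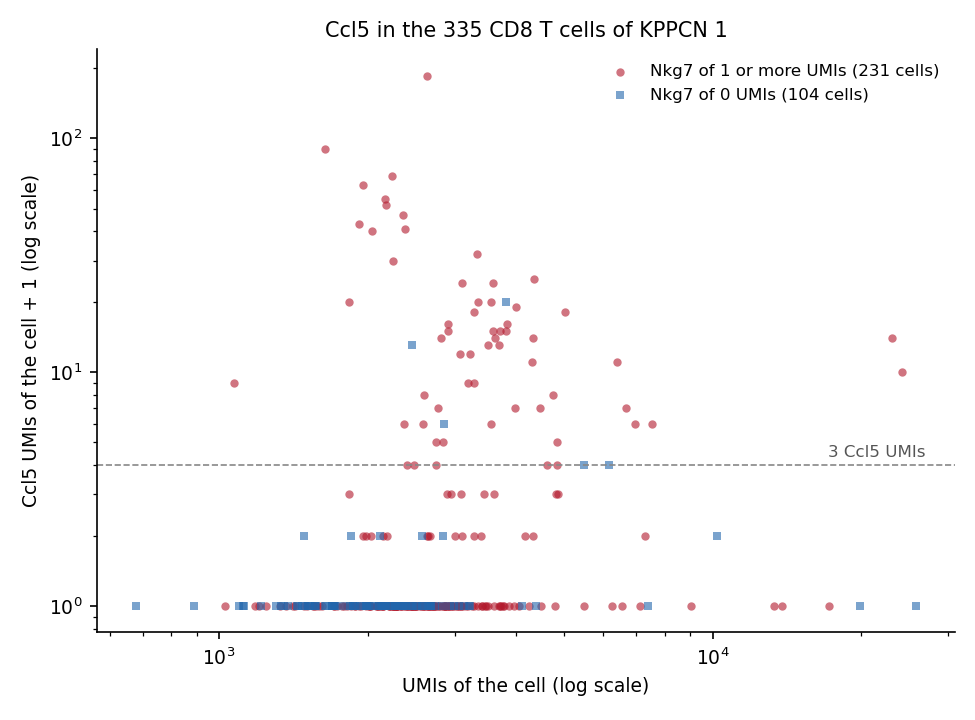
Ccl5 UMIs plus 1 (y axis, log scale) against total UMIs (x axis, log scale) in each of the 335 CD8 T cells, coloured by whether the cell had an Nkg7 UMI (231 cells) or none (104 cells); the dashed line marks 3 Ccl5 UMIs. Of the 335 cells 241 lie at no Ccl5, and the 11 cells with 30 or more Ccl5 UMIs had a median of 2178 total UMIs, against 2338 in cells without Ccl5.

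The 65 cells with 3 or more Ccl5 UMIs were set against the 241 with none, a split chosen after Ccl5 had been seen. Medians were 3282 UMIs in Ccl5-high cells and 2338 in Ccl5-zero cells. Nkg7 was found in 60 of the Ccl5-high cells (92.3%) and 61.4% of the Ccl5-zero cells. Ly6c2, a surface protein of memory CD8 T cells, was detected in 75.4% of Ccl5-high cells and 27.4% of Ccl5-zero cells. Il2rb, the receptor chain for IL-2 and IL-15, was detected in 72.3% of Ccl5-high cells and 19.5% of Ccl5-zero cells, and Ctla2a, a protease inhibitor of activated T cells, in 66.2 and 14.1%. A UMI of both Ly6c2 and Il2rb was found in 36 Ccl5-high cells (55.4%) and 17 Ccl5-zero cells (7.05%).

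These differences were also seen at equal depth. After thinning to 1000 UMIs (65 Ccl5-high and 239 Ccl5-zero cells), Ctla2a was detected in 46.2% of Ccl5-high cells and 6.69% of Ccl5-zero cells, Ly6c2 in 41.5 and 14.6%, and Il2rb in 30.8 and 9.62%. Several effector and memory genes were found in more of the Ccl5-high cells before thinning. Cxcr3, a chemokine receptor of effector and memory T cells, was detected in 13 Ccl5-high cells (20%) and 8 Ccl5-zero cells (3.32%), Gzmm in 26.2 and 2.07%, Hopx in 33.8 and 7.88%, and Cd160 in 26.2 and 4.98%. Eomes and Tbx21, the T-box factors of memory and effector cells, were detected in 15.4 and 12.3% of Ccl5-high cells and in 4.15 and 0.830% of Ccl5-zero cells. Any of Gzma, Gzmb, Gzmk and Prf1 was found in 19 Ccl5-high cells (29.2%) and 15 Ccl5-zero cells (6.22%), so most Ccl5-high cells had none detected. Klrd1, the CD94 chain of an NK-type receptor also used by CD8 T cells, was detected in 30.8% of Ccl5-high cells and 15.4% of Ccl5-zero cells, but after thinning in 7.69 and 7.95%. After thinning Gzmm was detected in 9.23% of Ccl5-high cells and 0.837% of Ccl5-zero cells, Hopx in 12.3 and 2.51%, and Cxcr3 in 7.69 and 1.26%.

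Before thinning, naive-type genes were found in most cells of both sets. Ccr7 or Lef1 was found in 64.6% of Ccl5-high cells (95% exact binomial interval 51.8 to 76.1%) and 72.2% of Ccl5-zero cells (66.1 to 77.8%). Ccr7 alone was detected in 35.4% of Ccl5-high cells (23.9 to 48.2%) and 46.5% of Ccl5-zero cells, and the intervals of the 2 sets overlapped. Dapl1 was detected in 23.1% of Ccl5-high cells and 49.8% of Ccl5-zero cells, Lef1 in 35.4 and 53.5%, and Ccr9, a gut-homing chemokine receptor, in 3.08 and 17.8%. At equal depth these genes were detected in fewer of the Ccl5-high cells. After thinning, Lef1 was detected in 13.8% of Ccl5-high cells and 28.5% of Ccl5-zero cells, and Ccr7 in 15.4 and 23.0%. Dapl1 was then detected in 6.15 and 31.8%, and Ccr9 in 1.54 and 9.2%. Itgae, an integrin of tissue-resident T cells, had no UMI in Ccl5-high cells (0 of 65, which allows a share of up to 4.62%) and was found in 16 Ccl5-zero cells (6.64%).

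**Figure D3:**
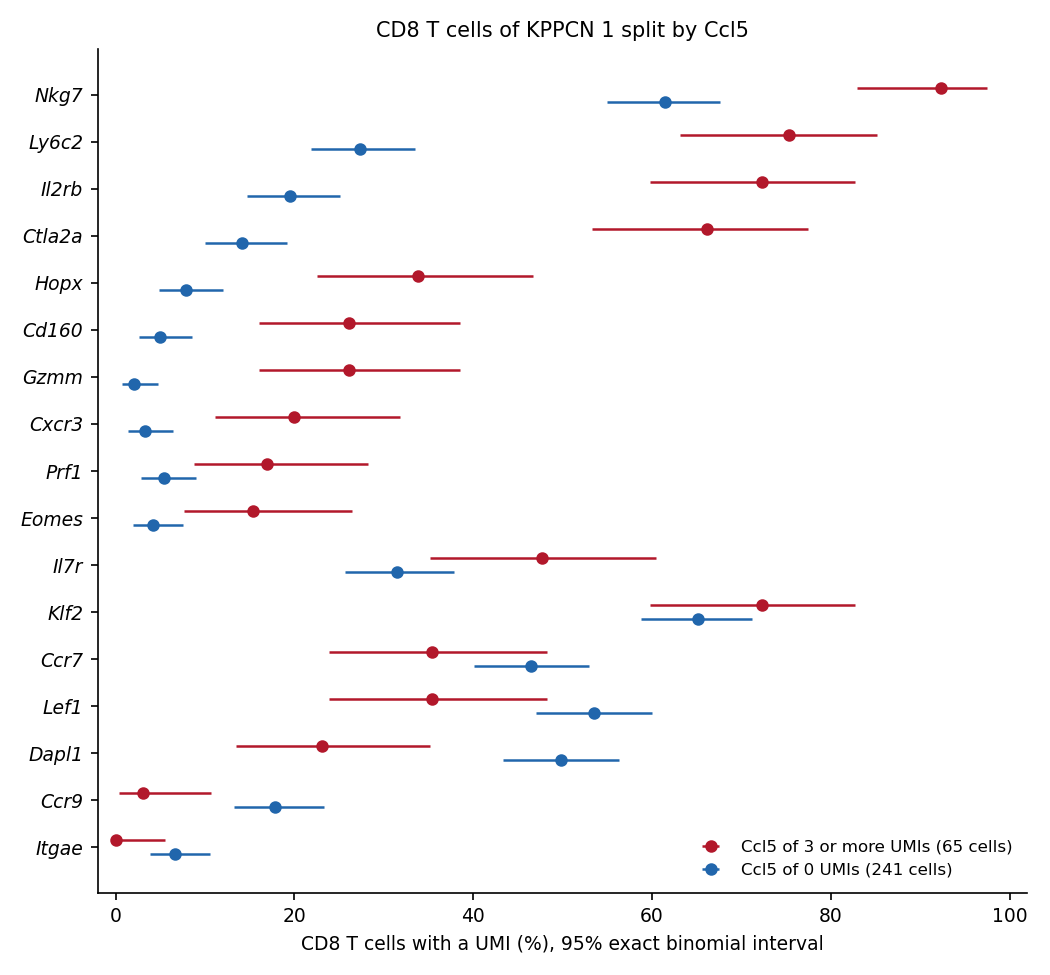
Percent of cells with a UMI of each gene in CD8 T cells with 3 or more Ccl5 UMIs (65 cells, red) and with none (241 cells, blue); lines are 95% exact binomial intervals. The intervals of Ly6c2, Il2rb and Ctla2a lie apart with Ccl5-high cells above, that of Dapl1 lies apart with Ccl5-high cells below, and the intervals of Ccr7 overlap.

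Over all genes, summed levels were compared as log2 ratios of CPM plus 10 for genes with at least 30 UMIs over both groups, and genes at least 2-fold apart were counted. Of 3614 genes, 74 (2.05%) were at least 2-fold higher and 134 (3.71%) at least 2-fold lower in Ccl5-high cells. Without mixed cells (5 Ccl5-high and 7 Ccl5-zero) the counts were 42 of 2977 (1.41%) higher and 92 (3.09%) lower. Ctla2a had a log2 ratio of 2.15, Il2rb 1.55, Cd160 1.45, Hopx 1.44 and Ly6c2 1.27, and without mixed cells the values were 2.45, 1.64, 1.56, 1.67 and 1.503. Dapl1 was at -2.07 and Igfbp4 at -1.80, and without mixed cells at -1.88 and -1.41.

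Some differences in summed levels were absent without mixed cells. The MHC class II gene H2-Ab1 had a log2 ratio of 2.82 and its invariant chain Cd74 one of 2.49, but without mixed cells they were at 0.66 and -0.09. The keratin genes Krt8 and Krt18 were at -2.40 and -2.81 and without mixed cells at -0.22 and -0.62. Acinar enzyme genes, which T cells do not make, were lower in Ccl5-high cells in 8 of 8 entered genes also without mixed cells, with a median log2 ratio of -1.84 against -0.07 over all 2977 genes. A single Ccl5-zero cell held 75.4% of that group's UMIs of the lipase gene Pnlip. The highest Ccl5-zero cell held 71.4% for Cpa1, 70.2% for Cela1 and 66.7% for Clps, but 21.2% for Try5. Among all CD8 T cells, 1 cell held 307 of the 672 UMIs of the acinar list. Acinar genes were not a marker set of mixed cells, so these ratios rest in large part on few cells.

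Of the 17 genes of the naive and memory list, 16 entered this comparison without mixed cells, with 0 higher, 3 lower (Lef1, Dapl1 and Igfbp4) and a median of -0.45. Of the 22 effector genes, 6 entered over all cells and none was 2-fold apart (median 0.43). Effector genes with fewer than 30 UMIs over both sets, such as Gzmm, Prf1, Tbx21 and Tnf, did not enter. The count therefore says nothing about them. Of the 21 memory and activation genes, 10 entered over all cells with 3 higher (Il2rb, Cxcr3 and Ly6c2) and 1 lower (S100a6), and a median of 0.21. Without mixed cells 9 of them entered, with 3 higher (Il2rb, Ly6c2 and Ahnak), 0 lower and a median of 0.71. In that setting S100a6 was at -0.36 and Cxcr3 did not enter. The proliferation genes Mki67 and Top2a were at 1.88 and 2.00, and at 1.15 and 1.05 without mixed cells. These ratios rested on few cells: 3 Ccl5-high cells held 92 of the 120 UMIs of the pair in that set. Of the 16 cell cycle genes, 11 entered with 6 higher and a median of 1.29, and without mixed cells 9 entered with 2 higher and a median of 0.38. The median over all genes was -0.04 with mixed cells and -0.07 without them. Of the 12 MHC class I genes, 11 entered and none was 2-fold apart, and of the 17 interferon-response genes 11 entered and none was.

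**Figure D4:**
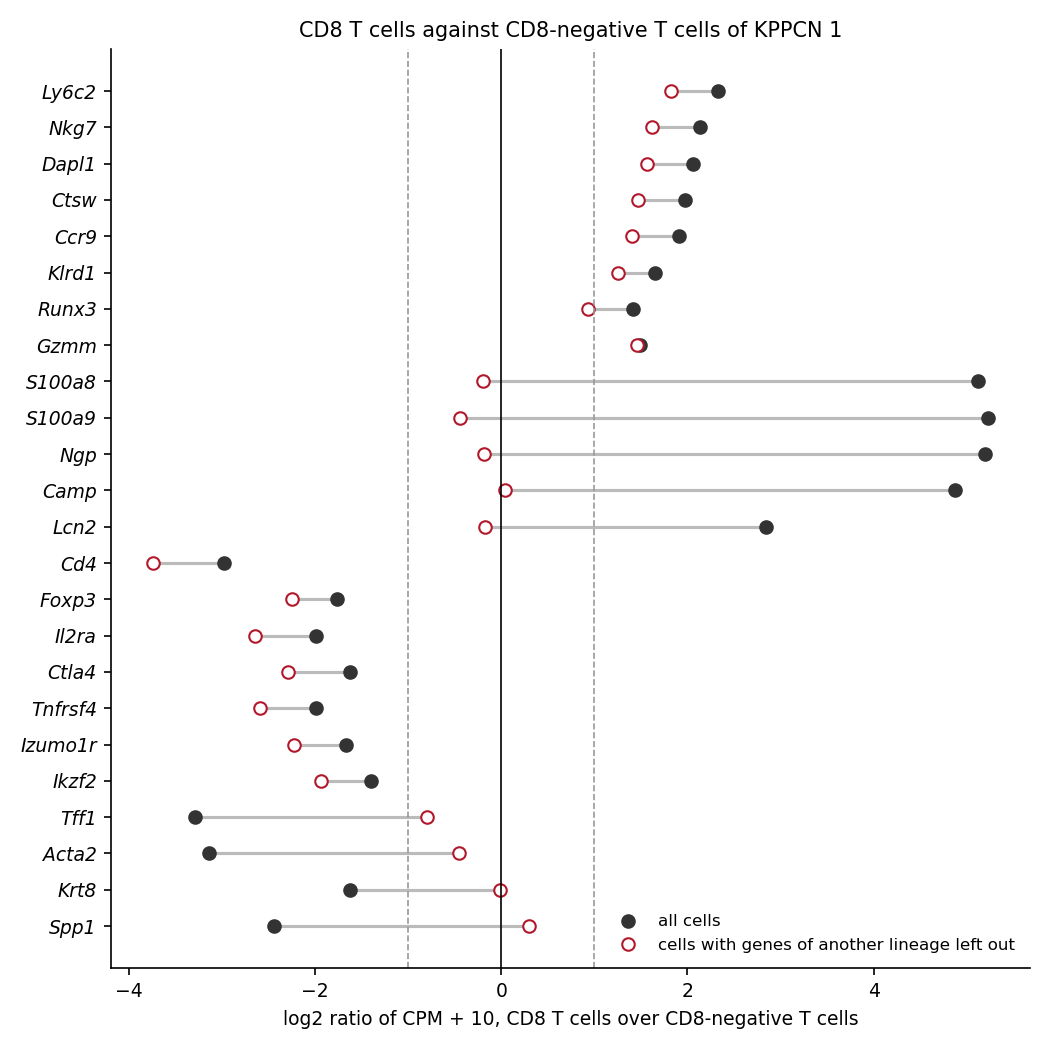
Log2 ratio of CPM plus 10 (x axis) of named genes (rows) in CD8 T cells over CD8-negative T cells of KPPCN 1, over all cells (filled) and with mixed cells left out (open); dashed lines mark 2-fold. Nkg7 and Ly6c2 stayed beyond 2-fold on the right and Cd4 and Il2ra on the left, whereas S100a8, Tff1 and Krt8 moved to within 2-fold when mixed cells were left out.

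Set against CD8-negative T cells, CD8 T cells had higher levels of a few cytotoxic and memory genes, among them Nkg7, Ctsw and Ly6c2, and lower levels of helper and regulatory genes. Of 8216 genes, 51 (0.621%) were at least 2-fold higher and 677 (8.24%) at least 2-fold lower in CD8 T cells. Without mixed cells the counts were 20 of 6268 (0.319%) higher and 115 (1.83%) lower, with a median over all genes of -0.14. The genes used by the rule, Cd8a and Cd8b1, were left out of the named genes. The values below are given first over all cells and then without mixed cells.

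Among the better-measured genes that kept a 2-fold gap was Ly6c2, with 371 UMIs (358 CPM, 323 to 396) in CD8 T cells, 128 UMIs (63.0 CPM, 52.6 to 74.95) in CD8-negative T cells and a log2 ratio of 2.33, or 1.82 without mixed cells. Its reads can be shared with the near-identical Ly6c1, which was at -1.08 and -1.61. Nkg7 was at 2.13 and 1.62, Dapl1 at 2.06 and 1.56, and Ctsw at 1.97 and 1.47. Ccr9 had 67 UMIs (64.7 CPM) in CD8 T cells and 20 UMIs (9.85 CPM) in CD8-negative T cells, a log2 ratio of 1.91, or 1.41 without mixed cells. Klrd1 was at 1.66 and 1.26, and Gzmm at 1.49 and 1.46.

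A second set of genes was low in both groups but several-fold apart, and their ratios rest on few UMIs. Lcn4 had 54 UMIs in CD8 T cells and 11 in CD8-negative T cells (log2 ratio 2.01, and 1.93 without mixed cells). Ggt1, a γ-glutamyl transferase, had 46 UMIs in CD8 T cells and 8 in CD8-negative T cells (1.96 and 1.87). Fam241a had 64 UMIs in CD8 T cells and 23 in CD8-negative T cells (1.75 and 2.07), Bend4 41 and 10 (1.73 and 1.89), and Adgrg5, an adhesion-type receptor, 40 and 12 (1.61 and 1.54). Jaml, a costimulatory adhesion molecule, had 61 UMIs in CD8 T cells and 31 in CD8-negative T cells (1.45 and 1.21). Each of these was spread over at least 34 CD8 T cells. Prg4, at 2.01 and 1.98, was not: 1 CD8 T cell held 89.6% of its 48 UMIs in that group.

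Runx3, the transcription factor that represses Cd4 and sustains the CD8 lineage, was detected in 118 CD8 T cells (35.2%) and 82 CD8-negative T cells (12.9%). Its level was 144 CPM (122 to 169) in CD8 T cells and 47.8 CPM (38.7 to 58.3) in CD8-negative T cells, a log2 ratio of 1.41, or 0.93 without mixed cells. Because Runx3 and Nkg7 stood higher in CD8 T cells together, their promoters were searched for the RUNX core motif TGTGGT on both strands. The RefSeq windows of build GRCm38.p6, from 250 bases before to 50 after the start, are shown 5′ to 3′ on the plus strand that both genes use, with the motif, here as its reverse complement ACCACA, in capitals.
Nkg7, chr7:43436888-43437187: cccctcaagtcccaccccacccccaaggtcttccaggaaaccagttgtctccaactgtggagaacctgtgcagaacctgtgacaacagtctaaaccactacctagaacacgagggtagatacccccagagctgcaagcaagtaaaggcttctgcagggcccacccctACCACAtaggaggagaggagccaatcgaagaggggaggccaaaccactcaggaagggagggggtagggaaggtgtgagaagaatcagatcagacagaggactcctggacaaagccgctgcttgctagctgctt
Runx3, chr4:135120395-135120694: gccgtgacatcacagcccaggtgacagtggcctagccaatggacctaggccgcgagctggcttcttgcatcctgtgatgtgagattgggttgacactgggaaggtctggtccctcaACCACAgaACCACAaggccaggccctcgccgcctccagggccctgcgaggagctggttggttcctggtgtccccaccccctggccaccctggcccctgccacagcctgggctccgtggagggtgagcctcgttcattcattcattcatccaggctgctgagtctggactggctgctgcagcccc

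The motif begins 83 bases before the start of Nkg7 and 134 and 126 bases before that of Runx3, as a pair separated by a dinucleotide. It occurs in 5506 of 32851 RefSeq promoter windows of the same length (16.8%), so a match alone is common and is a description of letters, not of a bound site. Of the other windows searched, those of Ly6c2 and Jaml and 1 window of Gzmm also hold a match. A second Runx3 window, at chr4:135152295-135152594, a second Gzmm window and the windows of Cd8a, Cd3d, Cd3e, Cd3g, Dapl1, Ccr9, Lef1, Nsdhl and Fam241a hold none.

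Genes of helper and regulatory T cells were lower in CD8 T cells. Of the 12 genes of that list, 11 entered with 0 higher and 8 lower (median -1.63, against -0.19 over all genes), and without mixed cells 10 entered and all 10 were lower (median -2.24, against -0.14). Cd4, which the rule did not use, had 4 UMIs in CD8 T cells and 202 in CD8-negative T cells, a log2 ratio of -2.98, or -3.74 without mixed cells. Foxp3, the factor of regulatory T cells, had 2 UMIs in CD8 T cells and 62 in CD8-negative T cells (-1.76 and -2.25), and Il2ra, the high-affinity IL-2 receptor chain, 1 and 68 (-1.99 and -2.65). The costimulatory receptor Tnfrsf4 (OX40) was at -1.99 and -2.60, Ctla4 at -1.63 and -2.29, Izumo1r (folate receptor 4) at -1.66 and -2.23 and the Helios gene Ikzf2 at -1.40 and -1.93.

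Activation genes leaned the same way. Of the 21 memory and activation genes, 18 entered without mixed cells. Of these, 2 were higher (Ly6c2 and Klrd1) and 5 lower (S100a4, Bhlhe40, Icos, Tnfrsf4 and Il2ra). Over all genes 0.319% were higher and 1.83% lower in that setting. The list's median was -0.50, against -0.14 over all genes. Tnfrsf4 and Il2ra also belong to the helper and regulatory list, so the 2 lists are not independent. S100a4, a calcium-binding protein of memory and motile cells, had 192 UMIs in CD8 T cells and 1222 in CD8-negative T cells (-1.65 and -1.83). Of the 22 effector genes, 16 entered without mixed cells, with 3 higher (Nkg7, Gzmm and Ctsw), 3 lower (Gzma, Ifng and Klrg1) and a median of -0.0011. Gzma had 10 UMIs in 6 CD8 T cells and 66 UMIs in 16 CD8-negative T cells (-1.11 and -2.28), and Ifng 4 UMIs in 4 CD8 T cells and 39 in 15 CD8-negative T cells (-1.08 and -1.56). The effector list was thus split by gene and not shifted as a whole.

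Of the 17 naive and memory genes, 3 were higher (Ccr7 1.04, Ms4a4b 1.13 and Dapl1) and 2 lower (Igfbp4 and Ly6c1) over all cells. Without mixed cells, 1 was higher (Dapl1) and 1 lower (Ly6c1), and Ccr7 and Ms4a4b were at 0.40 and 0.55. The T cell receptor and signalling list, outside the CD8 genes, had 18 entered and none 2-fold apart, but 3 of the 18 are the Cd3 genes by which both groups were chosen. None of the 17 interferon-response genes and none of the 12 MHC class I genes was 2-fold apart either.

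The largest ratios over all cells came from 1 cell. S100a8 and S100a9, calgranulins of neutrophils, had log2 ratios of 5.12 and 5.23 over all cells, but were at -0.20 and -0.44 without mixed cells. A single CD8 T cell of 10191 UMIs held 4060 of the 4136 UMIs (98.2%) of the neutrophil set, among them 1593 of 1629 S100a8 UMIs. That cell had 2 UMIs each of Cd3e, Cd3g, Trac and Trbc2 and 1 each of Cd8a and Cd8b1. On the other side, Tff1, a secreted peptide of mucous epithelium, was at -3.29 and without mixed cells at -0.80, and Krt8 was at -1.63 and -0.02.

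Cells with effector-type genes only (69) were also set against cells with naive-type genes only (58). Of 1262 genes, 62 (4.91%) were at least 2-fold higher and 14 (1.11%) lower, and without mixed cells 35 of 1072 (3.26%) were higher and 13 (1.21%) lower. Ctla2a had 65 UMIs in 20 effector-type cells and 10 UMIs in 7 naive-type cells (log2 ratio 1.97, and 2.33 without mixed cells). S1pr1, the receptor for exit from lymphoid tissue, had 13 UMIs in 10 effector-type cells and 23 UMIs in 19 naive-type cells (-1.30 and -1.16). Isg15, a protein induced by interferon, had 17 UMIs in 12 effector-type cells and 14 UMIs in 9 naive-type cells (-0.29 and -0.20). Other values rested on single cells: 1 effector-type cell held 99.2% of that group's Tff2 UMIs.

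Receptor constant genes were well detected and variable genes were not. Trbc2 was found without Trbc1 in 149 CD8 T cells, both genes in 147, Trbc1 alone in 26 and neither in 13. The 2 genes are near-identical copies and reads may be split between them, so the cells with both cannot be read as carrying 2 receptors. A UMI of a Trav gene was found in 24 cells, over 17 of the 128 Trav genes listed, and of a Trbv gene in 15 cells, over 11 of 35. The most often seen variable genes, Trav16n, Trav7-5, Trav3-3 and Trbv12-1, were each found in 3 cells. Reads from the 3′ end rarely reach these segments, and no statement on clones was possible.

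Proliferation was seen in few members. Mki67 or Top2a, genes of dividing cells, had a UMI in 35 CD8 T cells (10.4%), 8.79% of CD8-negative T cells, 7.34% of B cells and 15.8% of Dcn-high cells. At 3 or more UMIs of the pair the shares were 3.88% of CD8 T cells (13 cells, 2.08 to 6.54%), 2.51% of CD8-negative T cells, 2.78% of B cells and 5.90% of Dcn-high cells. The cells with the most UMIs of the pair had 37, 31 and 24 of the 194 UMIs in all members and total depths of 24210, 23132 and 4328 UMIs, so 2 of the 3 were among the deepest members. Of the 16 cell cycle genes, 16 entered the comparison with CD8-negative T cells, with 0 higher and 1 lower (Tyms).

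Genes of the pathways that the study asked about were measured in the same cells. Tgfb1, the ligand of the TGFβ pathway made by many immune cells, was detected in 26.3% of CD8 T cells, 30.3% of CD8-negative T cells, 38.3% of B cells and 27.6% of Dcn-high cells. Its receptor Tgfbr2 was detected in 15.8% of CD8 T cells, 15.1% of CD8-negative T cells and 44.1% of Dcn-high cells, and Smad7, an inhibitor that the pathway induces, in 41.5% of CD8 T cells, 37.4% of CD8-negative T cells and 32.2% of Dcn-high cells. Of the 18 TGFβ genes, 17 entered the comparison with CD8-negative T cells, with 0 higher and 3 lower, where 8.24% of all genes were lower, and without mixed cells 14 entered and none was 2-fold apart.

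Nsdhl, the gene deleted in the carcinoma lineage, had 8 UMIs in 8 CD8 T cells (2.39%) and 34 UMIs in CD8-negative T cells (3.92% of cells), against 3.87% of B cells and 4.85% of Dcn-high cells. Its share in CD8 T cells lay below those of the other groups, but it rested on 8 cells. The groups also differed in depth, and whether the Nsdhl shares differ beyond counting error was not tested. No background was measured for Nsdhl, so these shares do not separate expression from free RNA in any group. Srebf2, the factor that drives cholesterol synthesis, was detected in 16.1% of CD8 T cells and 14.3% of CD8-negative T cells. Npc2, a lysosomal cholesterol carrier, was detected in 78.8% of CD8 T cells, 67.5% of CD8-negative T cells and 79.3% of Dcn-high cells. Of the 34 cholesterol genes, 26 entered with 0 higher and 1 lower (8.24% lower over all genes), and without mixed cells 15 entered and none was 2-fold apart.

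MHC class I genes, which nearly all cells express, were widely detected. H2-K1 was found in 98.8% of CD8 T cells, 93.2% of CD8-negative T cells and 79.2% of Dcn-high cells, and B2m in 90.1% of CD8 T cells and 73.5% of CD8-negative T cells. After thinning, H2-K1 was detected in 81.4% of CD8 T cells and 80.5% of CD8-negative T cells. Near-identical class I genes may share reads with H2-K1.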

How the data were processed

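Single-cell RNA values of KPPCN 1 and 2 and of KPPC C3, D3 and H2 were used. The deposited values are natural log values: the authors' tables hold the natural log of 1 plus UMIs per 10000 in each cell. The 10x Genomics 3′ V3 chemistry with 98 bp single-end reads is per the labels' protocols. GRCm38, Seurat 3.0.2, R 3.5.1 and Cell Ranger 2.1.0 are named, with no role, in the submitters' processing notes. Filters on cells and the annotation are not given in the sources used here. KPPC library codes were not matched to sample numbers, and each gene above 0 in a KPPC library was found in at least 37 of its cells, so it was used for counts of receptor genes alone.

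A cell's smallest value is that of 1 UMI; dividing by it gave whole UMIs (within 0.01) for 100% of values, so depth is known. Because the tables hold log values in 1 library per group, no count model was run. Groups were compared by summed UMIs as the log2 ratio of CPM plus 10, for genes with at least 30 UMIs over both groups. Genes at least 2-fold apart were called. On this scale ratios understate the change of low genes. Sums have 95% exact Poisson intervals and shares 95% exact binomial (Clopper-Pearson) intervals. The Poisson intervals leave out the spread between cells. The limit for a share of 0 is 3 counts. Cells were also thinned to 1000 UMIs. Named genes are those of the gene lists, the 15 highest and 15 lowest ratios of each comparison, and the 5 most often seen variable genes. Others given for single cells or as background RNA, such as Hbb-bs and Pnlip, are from the marker lists. Naive-type genes are Ccr7 and Lef1, a narrower set than was planned, chosen after values had been seen; some genes of the planned set and lists are not reported here. The members and lists were chosen with earlier results of these data known.

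Scrublet in scanpy 1.11.5 marked 55 of 5378 KPPCN 1 cells (1.02%) as doublets, 2 of them members, and detected 23.3% of its simulated doublets. Marked cells were kept, so doublets remain. Mixed cells and the Ccl5 split were defined after the data had been seen. Python 3.11.15, numpy 2.4.6, pandas 2.3.3, scipy 1.17.1 and matplotlib 3.10.9 were used, and the comparison script was tested on simulated data. Gene positions are from GENCODE on GRCm38 and promoter sequences from RefSeq GRCm38.p6.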

Additional observations from a re-analysis of the deposited data

Results flagged for a closer look

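Receptor constant gene Trbc2 was detected in the KPPC libraries, which no comparison above uses because their table lacks the genes of the rule. A Trbc2 UMI was found in 16.8% of cells of library C3, 18.6% of D3 and 13.0% of H2. At least 5 Trbc2 UMIs were found in 193, 129 and 69 cells of C3, D3 and H2, of which 178, 123 and 65 were not Dcn-high. Among Dcn-high cells the shares with a Trbc2 UMI were 5.49, 5.67 and 2.69%. Trbc1 was found in 198, 290 and 173 cells of C3, D3 and H2, and Ctsw in 194, 324 and 164. Trac is listed at 0 in C3 and H2 and had 129 UMIs in D3. Since each gene above 0 in a KPPC library was found in at least 37 of its cells, a listed 0 does not show that the gene was absent. In KPPCN 2, where no cell had a Cd3 UMI, Trbc2 was found in 57.4% of cells, in 74.5% of 1075 keratin-rich cells and in 17.4% of 455 Dcn-high cells. In KPPCN 2, Trbc2 alone therefore does not identify T cells. Whether the Trbc2 cells of the KPPC libraries are T cells was not settled, since their table has no row for a Cd3 or Cd8 gene. Overlap of Trbc2 with the listed T cell genes or with keratins was not examined there.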

How the results depend on the processing

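The number of CD8 T cells, 335, was 146 with at least 1000 genes, 250 with at least 2 UMIs of Cd8a and Cd8b1, and 489 without the limits on Cd79a, Cd79b and Dcn. Leaving out a library gave 0 to 335, since KPPCN replicate 1 holds every member. The CD8 share of T cells, 34.5%, was 48.5% with 1000 genes, 25.7% with 2 UMIs and 25.3% after thinning. Cells with naive-type genes only were 8.22% with 1000 genes, 23.6% when 2 UMIs of a list were asked for and 48.1% without Nkg7. Effector-type genes only gave 35.1% after thinning, 30.4% with 2 UMIs of a list and 9.85% without Nkg7. Both gave 70.5% with 1000 genes, 61.6% with 2 CD8 UMIs, 20.7% after thinning, 23.9% with 2 UMIs of a list and 22.7% without Nkg7, and neither gave 3.42% with 1000 genes, 24.3% after thinning, 22.1% with 2 UMIs of a list and 19.4% without Nkg7.

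Genes at least 2-fold higher in CD8 than in CD8-negative T cells were 105 with a pseudocount of 2 CPM, 13 with 50 CPM, 33 with cells weighted equally, 26 after thinning, 25 with at least 100 UMIs and 20 without mixed cells. Genes lower were 1242, 146, 204, 140, 416 and 115 under the same settings. Between effector-type and naive-type cells, 38 were higher with 50 CPM, 18 after thinning and 35 without mixed cells, and 5 were lower with 50 CPM and 1 after thinning. In Ccl5-high cells 42 were higher without mixed cells. Without mixed cells S100a8 was at -0.20, S100a9 at -0.44, Lcn2 at -0.17 and Spp1 at 0.29 against CD8-negative T cells, and Cd74 at -0.093 in Ccl5-high cells. These were the 5 reversals among 394 alternatives of 66 log2 ratios, of which 148 moved by more than counting error. Among 69 alternatives of 23 levels, 49 moved and 0 reversed. For thinning and for leaving out mixed cells, fewer UMIs or cells entered, and the cause of the other changes was not tested.

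No paired analysis was possible because the KPPC columns carry no replicate numbers and every member came from 1 library. The planned comparison of genotypes and the CD8 share without KPPCN replicate 1 were not run, since the KPPC table lacks the genes of the rule and KPPCN 2 holds no T cell. At a median of 2487 UMIs per cell, a gene not detected is not shown to be absent.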

Other observations

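Immediate-early genes, which respond within minutes to stimulation or handling of cells, were lower in the summed levels of CD8 T cells than of CD8-negative T cells over all cells, with 4 of 18 genes at least 2-fold lower (8.24% over all genes) and 0 higher. Without mixed cells none was 2-fold apart, and the list's median log2 ratio was -0.58, against -0.14 over all genes. Jun was detected in 66.0% of CD8 T cells, 70.8% of CD8-negative T cells and 95.5% of Dcn-high cells, and after thinning in 39.9% of CD8 T cells, 53.9% of CD8-negative T cells and 83.0% of Dcn-high cells. Fos was detected in 41.8% of CD8 T cells, 41.8% of CD8-negative T cells and 90.0% of Dcn-high cells. The part of free RNA in these shares was not tested.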
